A study of Homo sapiens with 66 samples.

Results

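The 10 genes described here encode proteins of the BCL2 family, which decide at the mitochondrion whether a stressed cell survives or dies. They were chosen by name, with no threshold on their values, and are 10 of the 20167 genes of the count table: the anti-apoptotic BCL2, BCL2L1, MCL1 and BCL2A1, the BH3-only BCL2L11, BBC3, PMAIP1 and BID, and the effectors BAX and BAK1. RNA was measured in a pair of human multiple myeloma lines, AMO1 (labelled AMO-1 WT) and L363-CFZr (labelled CFZr L363), a subline of L363 cells that is resistant to the proteasome inhibitor carfilzomib (CFZ). AMO1 cells received DMSO, NCP26, halofuginone (HFG), CFZ, NCP22 or halofuginol for 6 or 24 h, which gives 12 groups and 36 libraries. L363-CFZr cells received the same agents other than CFZ, which gives 10 groups and 30 libraries, and all L363-CFZr groups, DMSO included, carry the resistance. NCP26, HFG, NCP22 and halofuginol were given at 1 µM, with 3 replicates in every group. NCP26 and HFG inhibit prolyl-tRNA synthetase, NCP26 was developed from NCP22, and halofuginol is the form of HFG in which the ketone is an alcohol. In the paper's assay NCP22 and halofuginol bind the enzyme too, with lower affinity than NCP26 and HFG, so they are not inactive controls. Each line stands for 1 culture history. The paper's statistics section gives biological triplicates as its default, and its RNA methods say only that conditions were in triplicate. Nothing in the labels says that replicates came from separate cultures. The p-values thus measure the spread between these libraries, which may be technical.

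In the intrinsic pathway of apoptosis, BAX and BAK1 form pores in the outer mitochondrial membrane, through which cytochrome c leaves to start the caspase cascade. BCL2, BCL-XL (the product of BCL2L1), MCL1 and BCL2A1 hold BAX, BAK1 and the BH3-only proteins in check, while BIM (BCL2L11), PUMA (BBC3), NOXA (PMAIP1) and BID bind the anti-apoptotic proteins or activate the effectors. NOXA binds chiefly MCL1, the member on which plasma cells and most myeloma cells are known to depend. Inhibition of a tRNA synthetase activates the kinase GCN2 and the translation of ATF4, and ATF4 and its partners ATF3 and CHOP (DDIT3) are known to act on PMAIP1, BBC3 and other BH3-only genes. PMAIP1, BBC3 and BAX are also classical targets of p53.

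The libraries held 1666325 to 6596543 counts (median 3165566), and the 66 pairs of replicates correlated between 0.9382 and 0.9923 on the scale of log2 CPM (read counts scaled to a common library total), with 0 identical pairs. The second replicate of L363-CFZr with DMSO at 24 h and the second replicate of AMO1 with CFZ at 24 h stood apart from their replicates (0.9382 to 0.9433). Member calls against DMSO, or between the lines with DMSO, that change without them are given with and without them. The sample numbers in the column names fall into 3 sets of 22 libraries, and most groups lie wholly within 1 set. AMO1 compounds at 24 h were thus compared with DMSO of another set (for CFZ, 2 of its 3 libraries), as were HFG, halofuginol and 1 of the 3 NCP22 libraries in L363-CFZr at 6 h. The DMSO groups of the lines were in different sets at both times, as were those of L363-CFZr at 6 and 24 h. What the sets are is not stated. One of the alternatives below adds a term for the set. Within a line, only AMO1 with CFZ at 24 h and L363-CFZr with NCP22 at 6 h hold libraries of more than 1 set. The term rests on those libraries, among them the second CFZ replicate that stood apart. A call lost with this term may therefore only have a wider error. All 9 plasma cell marker genes were detected in every library. Their summed levels were 9630 to 9970 CPM in AMO1 with DMSO at 6 h, 4870 to 5170 CPM with NCP26 and 4620 to 4690 CPM with HFG. At 24 h their sums were 5360 to 8710 CPM in L363-CFZr with DMSO. Markers of other cells (14 genes) summed to 1.15 to 12 CPM in any library. The part of these shifts in the results was not tested, and in bulk RNA fewer cells expressing a gene and less of its RNA per cell cannot be told apart.

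PMAIP1 (ENSG00000141682, chr18:59899996-59904305, plus strand, GRCh38) rose most often among the members, and the 250 bases before its start, chr18:59899746-59899995, are shown because an ATF-type motif lies in them. The RefSeq promoter table (GRCh38.p14) matched 9 of the 10 members, with 14 promoters, and did not match MCL1. The capitals mark ACGTCA, the reverse complement of TGACGT, which is the core of the cAMP response element that ATF proteins bind.
PMAIP1: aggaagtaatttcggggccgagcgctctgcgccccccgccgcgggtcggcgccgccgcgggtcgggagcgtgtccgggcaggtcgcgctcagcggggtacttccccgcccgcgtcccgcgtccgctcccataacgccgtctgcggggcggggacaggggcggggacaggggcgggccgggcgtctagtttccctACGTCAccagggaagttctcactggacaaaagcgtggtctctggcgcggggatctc
The full element TGACGTCA was found on either strand in 0 of the 14 member promoters and in 1.65% of 35116 RefSeq promoters of the same length. Its core TGACGT, which was searched after the full element had been found in none, was in 1 of the 14, that of PMAIP1, against 7.1% of all promoters. TGANGCAA, the form of the element at which ATF4 and C/EBP proteins pair, was in 1 of the 14, that of BCL2A1, against 2.77% of all. The GC box GGGCGG was in 8 of the 14 against 42.6%, and the PMAIP1 window holds 4 such boxes and has a GC content of 72.8%. Of those 8 windows 4 belong to BID and overlap each other in part, so some boxes are counted more than once. These matches describe letters within the windows and show no binding.

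In untreated cells MCL1 was the most abundant member per kilobase of transcript in all 4 DMSO groups. Its level was 350 ± 29.5 CPM per kilobase (SD, n = 3) in AMO1 at 6 h, 434 ± 6.14 at 24 h, and 144 ± 7.7 and 134 ± 5.46 in L363-CFZr. BAX came next in AMO1 with 125 ± 16.6 CPM per kilobase at 6 h and 134 ± 2.16 at 24 h, and its range overlapped neither that of MCL1 nor that of the gene below. Then followed, in AMO1 at 6 h, BAK1 (44.9 CPM per kilobase), BCL2L11 (41.1), BCL2 (33.6), BBC3 (32.6), BID (27), BCL2L1 (16.6) and PMAIP1 (13.8), of which BCL2 overlapped BBC3 and BBC3 overlapped BID. In AMO1 at 24 h the order was BCL2L11 (60.4 CPM per kilobase), BCL2 (49.3), BAK1 (46.1), BBC3 (39), BID (19.8), BCL2L1 (13.9) and PMAIP1 (11.8), and here only BCL2 and BAK1 overlapped. In L363-CFZr at 6 h BAX (43 CPM per kilobase) overlapped BAK1 (37.5), and BCL2L11 (29.6), BCL2L1 (28.6) and BID (26.7) overlapped each other in that order, ahead of BCL2 (20.7), BBC3 (5.63) and PMAIP1 (3.21). In L363-CFZr at 24 h the genes from BCL2L11 (42.3 CPM per kilobase) through BCL2 (39.1), BAX (37.6), BAK1 (28.4) and BID (17.5) to BCL2L1 (16.6) each overlapped the next, with BBC3 (6.95) and PMAIP1 (3.23) below. Using the longest coding transcript in place of the canonical one kept 27 of the 40 places in these orders. BCL2A1, a survival gene best known from NF-kappaB-driven B cells, had 0 to 2 counts in a library (10 in all 36 AMO1 libraries and 11 in all 30 L363-CFZr libraries) and did not pass the filter on low counts in any comparison.

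**Figure D1:**
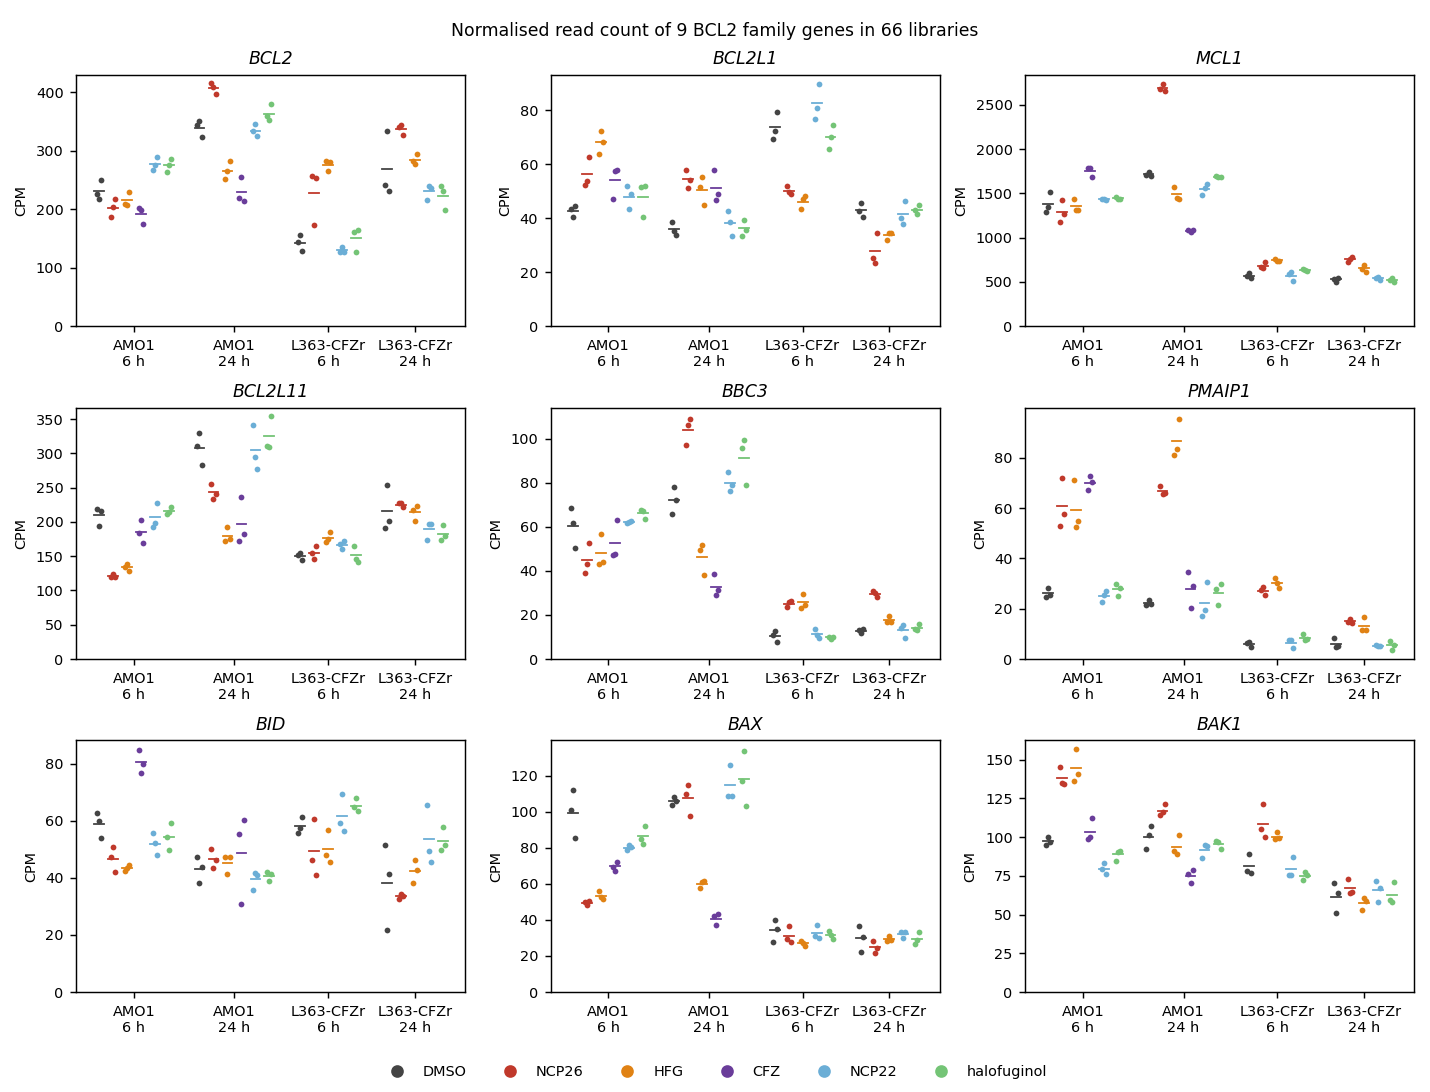
Level of 9 members in each of the 66 libraries, in TMM-scaled CPM on linear axes that start at 0, by line, time and agent, with 1 point for each library and a bar at the mean of each group. PMAIP1 sits between 17 and 95.4 CPM in AMO1 and between 3.74 and 32.3 CPM in L363-CFZr, and its libraries with NCP26 and HFG lie above those with DMSO at both times in both lines.

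L363-CFZr cells had lower levels of most members than AMO1 cells with DMSO alone. At 6 h 8 of the 9 members tested differed (1 higher, 7 lower), where 60.2% of all genes tested differed. At 24 h 6 of 9 differed, all lower, against 39.9% of all genes. BBC3 was lower by a log2 difference of -2.60 ± 0.17 (SE, adjusted p = 6.5e-11) at 6 h and -2.48 ± 0.13 (adjusted p = 2.4e-05) at 24 h. PMAIP1 was at 24.8, 28.3 and 25.5 CPM in the AMO1 libraries at 6 h and at 6.57, 6.81 and 4.94 CPM in L363-CFZr (log2 difference -2.15 ± 0.20, adjusted p = 8.5e-09). At 24 h its difference was -1.85 ± 0.22 (adjusted p = 0.00069), which did not pass with the set of libraries as a term (adjusted p = 0.44). BAX (-1.56 ± 0.13 at 6 h and -1.82 ± 0.17 at 24 h) and MCL1 (-1.30 ± 0.07 and -1.70 ± 0.12) were lower at both times. BCL2L1 was the member that was higher in L363-CFZr, by 0.77 ± 0.11 at 6 h (adjusted p = 2.7e-06). BCL2L11 was lower by -0.50 ± 0.08 at 6 h and by -0.51 ± 0.15 at 24 h. At 24 h this was lost (adjusted p 0.065 to 0.12) without any 1 of the AMO1 libraries or without the first or the third of L363-CFZr. BAK1 was lower by -0.70 ± 0.14 at 24 h and by -0.28 ± 0.09 at 6 h. The latter was lost without the first or the third replicate of L363-CFZr (adjusted p 0.061 to 0.064) or with the set as a term (adjusted p = 0.28). BCL2 was lower at 6 h (-0.73 ± 0.09, adjusted p = 3.5e-07). At 24 h it did not pass (adjusted p = 0.16), but without the second DMSO replicate of L363-CFZr it was lower by -0.53 ± 0.06 (adjusted p = 1.6e-09). The lines differ in origin as well as in resistance, and their DMSO libraries were in different sets at both times. Origin, resistance and set cannot be told apart.

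Against DMSO, 5 to 8 of the 9 members tested changed with NCP26, HFG and CFZ, other than in L363-CFZr at 24 h, and across these comparisons survival and death genes were both among those that rose and among those that fell. With NCP26, 7 of the 9 members tested changed in AMO1 at 6 h (3 higher, 4 lower; 37.3% of all genes changed) and 7 at 24 h (6 higher, 1 lower; 60.7%). The first of these counts was 4 without the first or second DMSO replicate. In L363-CFZr NCP26 changed 5 members at 6 h (4 higher, 1 lower; 18.8%) and 2 at 24 h (both higher; 7.09%). The count at 6 h was 3 without the first or the third DMSO replicate. That at 24 h was 6 without the second DMSO replicate and 1 without the third or without any 1 of the NCP26 replicates. With HFG, 6 members changed in AMO1 at 6 h (3 higher, 3 lower; 54.3%) and 7 at 24 h (2 higher, 5 lower; 59%). In L363-CFZr 8 changed at 6 h (6 higher, 2 lower; 54.5%). These HFG libraries and their DMSO were in different sets. Over all genes the log2 fold change there correlated with GC content (Pearson's r = -0.57, and -0.72 with halofuginol at that time). HFG changed 0 members in L363-CFZr at 24 h by edgeR (1.17% of all genes), with 4 at an unadjusted p under 0.05, 0 by DESeq2, and 3 without the second DMSO replicate. CFZ changed 6 members in AMO1 at 6 h (4 higher, 2 lower; 26.9%) and 7 at 24 h (1 higher, 6 lower; 27%). The last count was 9 without the second CFZ replicate, 3 without the second DMSO replicate and 4 without the first replicate of either group. With 9 members tested these shares are coarse, and a difference of 1 or 2 members from the share of all genes is not a result about the members.

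The compounds NCP22 and halofuginol left most members close to DMSO. NCP22 changed 3 members in AMO1 at 6 h (13.5% of all genes), BCL2 upward and BAX and BAK1 downward. This count was 0 without the first or second DMSO or the third NCP22 replicate and 1 without the first NCP22 replicate. At 24 h it changed 0 in AMO1 (0% of all genes by edgeR, where 638 had an unadjusted p under 0.05 and DESeq2 called 3), and 1 member had an unadjusted p under 0.05. In L363-CFZr it changed 0 at 6 h (0%, where 666 had an unadjusted p under 0.05 and DESeq2 called 1) and 0 at 24 h (0%, where these counts were 213 and 0). No member of that line reached an unadjusted p under 0.05. Halofuginol raised BCL2 in AMO1 at 6 h (1 member, or 3 without the third DMSO replicate; 3.62% of all genes) and MCL1 in L363-CFZr at 6 h (1 member; 25.8%). At 24 h it changed 0 members in AMO1 (0.183%, with 1 member at an unadjusted p under 0.05 and 0 by DESeq2) and 0 in L363-CFZr (0%, where 410 genes but no member had an unadjusted p under 0.05 and DESeq2 called 0). Both calls with halofuginol were lost with all groups in one fit (adjusted p 0.098 for BCL2 and 0.23 for MCL1), and each was lost without any of 5 of its 6 libraries. With the set of libraries as a term as well, the MCL1 value was 0.40 ± 0.13 (adjusted p = 0.11).

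The median log2 fold change of the 3 anti-apoptotic members tested was -0.09 with NCP26 in AMO1 at 6 h and 0.61 at 24 h, and that of the 6 pro-apoptotic members was -0.37 and 0.17, beside medians of all genes of -0.01 and 0.01. With HFG in AMO1 the medians were 0.00 and -0.21 for the anti-apoptotic and -0.35 and -0.38 for the pro-apoptotic members. In L363-CFZr at 6 h they were 0.28 and 0.25 with NCP26 and 0.42 and 0.30 with HFG, in the same order of classes. At 24 h in that line they were 0.34 and 0.1 with NCP26 and 0.083 and 0.065 with HFG. With CFZ in AMO1 they were 0.33 and -0.047 at 6 h and -0.54 and -0.51 at 24 h. These medians rest on 3 and 6 genes, and the difference between the classes was not tested.

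**Figure D2:**
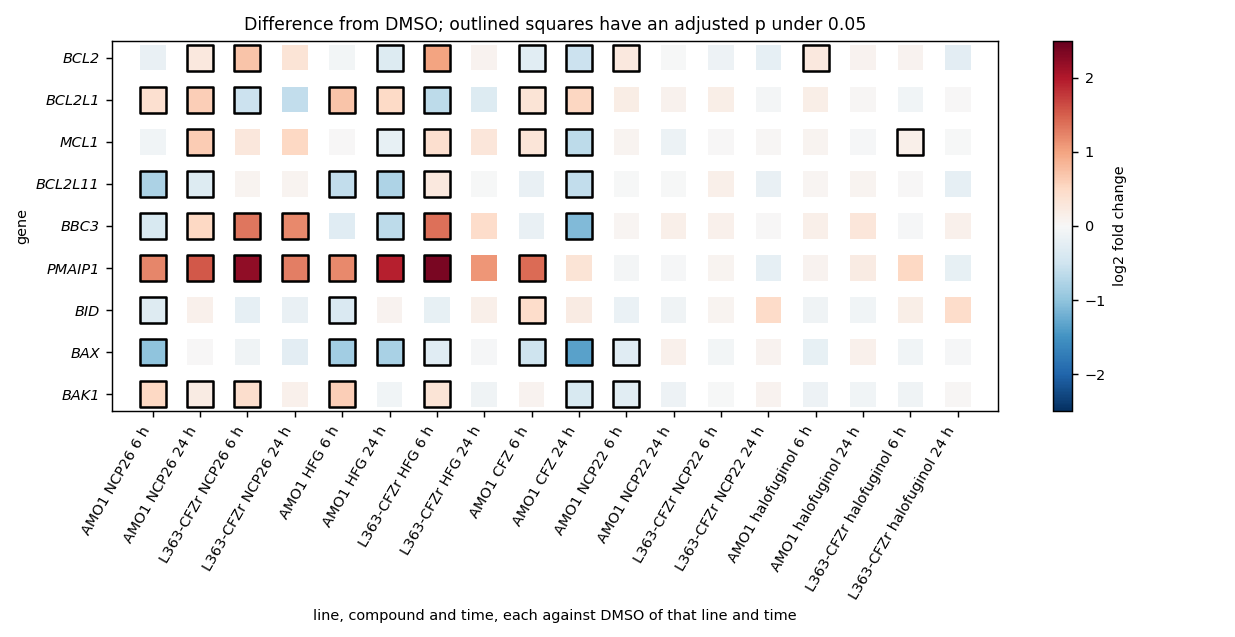
Log2 fold change against DMSO of each of the 9 members tested (rows) in each line, compound and time (columns), as colour from blue (lower) to red (higher), with a black outline where the adjusted p was under 0.05. The row of PMAIP1 is red with NCP26 and HFG in both lines, with values from 1.10 to 2.38, and the columns of NCP22 and halofuginol hold few outlines.

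PMAIP1 rose in 8 of the 18 comparisons with DMSO and fell in 0. In AMO1 at 6 h its levels were 52.8, 72.1 and 57.8 CPM with NCP26, 71.3, 52.3 and 54.7 with HFG and 67.1, 72.8 and 70.2 with CFZ, all above the 3 DMSO libraries (24.8, 28.3 and 25.5). The log2 fold changes were 1.23 ± 0.14 (adjusted p = 5.5e-05), 1.2 ± 0.14 (adjusted p = 2.5e-06) and 1.42 ± 0.11 (adjusted p = 3.2e-09). At 24 h it stood at 68.8, 65.5 and 65.8 CPM with NCP26 and at 81, 83.5 and 95.4 with HFG, where DMSO had 21.6, 23.6 and 22. These were increases of 1.56 ± 0.10 (adjusted p = 2.8e-14) and 1.95 ± 0.10 (adjusted p = 1.2e-11). With CFZ at 24 h the libraries (34.6, 20.1 and 29.1 CPM) overlapped those of DMSO. The log2 fold change was 0.34 ± 0.19 (adjusted p = 0.22), or 0.52 ± 0.14 (adjusted p = 0.0061) without the second CFZ replicate, which was the lowest.

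In L363-CFZr, where PMAIP1 started from 13 to 34 counts in a DMSO library, it reached 27.3, 28.7 and 25.6 CPM with NCP26 at 6 h and 32.3, 30.3 and 28.4 with HFG. The increases over DMSO were 2.21 ± 0.18 (adjusted p = 2.4e-05) and 2.38 ± 0.17 (adjusted p = 7.2e-11), larger than any other difference of PMAIP1 from DMSO in these data. By 24 h the levels were 14.9, 15.8 and 14.3 CPM with NCP26 and 11.6, 16.8 and 11.5 with HFG, all above the DMSO libraries (8.39, 4.85 and 5.13). NCP26 gave 1.28 ± 0.25 (adjusted p = 0.024). This was lost without the third DMSO replicate or without any 1 of the NCP26 libraries (adjusted p 0.09 to 0.13). HFG gave 1.10 ± 0.29 (adjusted p = 0.13), and 0.97 ± 0.26 (adjusted p = 0.0099) without the second DMSO replicate. With NCP22 PMAIP1 differed from DMSO by -0.05 (95% interval -0.34 to 0.23) in AMO1 at 6 h and by 0.08 (-0.53 to 0.69) in L363-CFZr at 6 h. With halofuginol the values were 0.08 (-0.19 to 0.36) in AMO1 and 0.52 ± 0.23 (adjusted p = 0.096) in L363-CFZr at 6 h.

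BBC3 (ENSG00000105327, chr19:47220822-47232766, minus strand), which encodes PUMA, a BH3-only protein that binds all the main anti-apoptotic members, rose in L363-CFZr and moved either way in AMO1. In L363-CFZr at 6 h it went from 10.8, 12.6 and 7.73 CPM with DMSO to 23.5, 25.8 and 26.1 with NCP26 and 23.1, 29.3 and 24.6 with HFG. The log2 fold changes were 1.33 ± 0.19 (adjusted p = 0.0012) and 1.37 ± 0.18 (adjusted p = 8.4e-07). With NCP26 at 24 h it remained above DMSO by 1.21 ± 0.15 (adjusted p = 0.0048), with 30.7, 30 and 28 CPM against 13.1, 11.9 and 13.4. With HFG at 24 h it had 16.8, 19.6 and 16.8 CPM, above DMSO in each library. The log2 fold change of 0.46 ± 0.16 did not pass (adjusted p = 0.23). In AMO1 the DMSO libraries at 6 h had 68.7, 61.5 and 50.3 CPM and overlapped those with NCP26 (39.1, 43.2 and 52.6). There BBC3 fell by 0.41 on the log2 scale (SE 0.14, adjusted p = 0.041). That call was lost without the first or second replicate of either group (adjusted p 0.11 to 0.18) and with an offset for GC content (adjusted p = 0.75). At 24 h in AMO1 BBC3 rose with NCP26 to 96.9, 106 and 109 CPM from 65.9, 78.1 and 71.9 (0.51 ± 0.08, adjusted p = 1.5e-06). It fell with HFG to 49.5, 51.7 and 38.1 CPM (-0.66 ± 0.11, adjusted p = 5.9e-05). With the set of libraries as a term this was -0.31 ± 0.26 (adjusted p = 0.39). With CFZ BBC3 fell to 38.5, 28.9 and 31.1 CPM (-1.11 ± 0.14, adjusted p = 0.00094).

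BCL2L11 (ENSG00000153094, chr2:111119378-111168444, plus strand), the gene of BIM, fell in AMO1 with both inhibitors. Its levels at 6 h were 219, 194 and 216 CPM with DMSO, 119, 124 and 119 with NCP26 and 134, 138 and 129 with HFG. The log2 fold changes were -0.79 ± 0.10 (adjusted p = 7.5e-05) and -0.61 ± 0.08 (adjusted p = 8.2e-06), with no overlap. At 24 h it was lower by -0.34 ± 0.06 (adjusted p = 3.8e-06) with NCP26, by -0.77 ± 0.07 (adjusted p = 1.4e-08) with HFG and by -0.62 ± 0.15 (adjusted p = 0.018) with CFZ. The call with CFZ was lost without the first or second DMSO replicate or the first or the third CFZ replicate (adjusted p 0.054 to 0.084). In L363-CFZr with HFG at 6 h it went the other way, from 152, 155 and 145 to 170, 175 and 185 CPM (0.27 ± 0.07, adjusted p = 0.0018). This increase was lost with the set of libraries as a term (adjusted p = 0.48).

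BID (ENSG00000015475, chr22:17734138-17774770, minus strand), which links death receptors to the mitochondrion once caspase-8 has cut it, was called in 3 comparisons with all libraries, each in AMO1 at 6 h. Without the libraries that stood apart it was also higher with CFZ in AMO1 at 24 h (0.44 ± 0.12, adjusted p = 0.0042) and lower with NCP26 in L363-CFZr at 24 h (-0.46 ± 0.13, adjusted p = 0.017). At 6 h in AMO1 it stood at 62.7, 59.8 and 53.8 CPM with DMSO, 42.5, 43.5 and 44.4 with HFG (-0.39 ± 0.10, adjusted p = 0.0033) and 84.9, 76.5 and 80 with CFZ (0.45 ± 0.10, adjusted p = 0.0012). With NCP26 it had 47.3, 50.9 and 41.9 CPM (-0.32 ± 0.12, adjusted p = 0.048). The decrease was lost without the first or second DMSO replicate or any 1 of the NCP26 replicates (adjusted p 0.051 to 0.17) and under 5 other alternatives.

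BAX (ENSG00000087088, chr19:48954815-48961798, plus strand) fell wherever it was called, in 7 of the 18 comparisons. At 6 h in AMO1 the DMSO libraries had 101, 112 and 85.6 CPM, those with NCP26 49.7, 48.1 and 50.7 and those with HFG 56, 52.8 and 51.9. The log2 fold changes were -1.0 ± 0.12 (adjusted p = 6.3e-05) and -0.87 ± 0.10 (adjusted p = 3.9e-06), and with CFZ it was -0.52 ± 0.10 (adjusted p = 0.00039). By 24 h BAX with NCP26 was at 110, 115 and 97.9 CPM, overlapping DMSO (104, 108 and 106). It was at 57.9, 60.8 and 61.6 with HFG (-0.82 ± 0.08, adjusted p = 3.6e-08). With CFZ it was at 42, 37.3 and 43.1 CPM (-1.36 ± 0.11, adjusted p = 0.00012). The decrease with NCP22 in AMO1 at 6 h (-0.30 ± 0.09, adjusted p = 0.036) was lost without the first or second DMSO replicate or any 1 of the NCP22 libraries (adjusted p 0.078 to 0.23) and with an offset for GC content (adjusted p = 0.45). In L363-CFZr the decrease with HFG at 6 h (-0.31 ± 0.13, adjusted p = 0.049) overlapped DMSO. It was lost without the second or the third DMSO replicate or any 1 of the HFG replicates (adjusted p 0.073 to 0.22) and turned positive with an offset for GC content (0.041, adjusted p = 0.84).

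BAK1 (ENSG00000030110, chr6:33572547-33580293, minus strand), the other pore-forming effector, rose at 6 h in both lines. In AMO1 it went from 95.1, 100 and 97 CPM to 145, 135 and 134 with NCP26 (0.51 ± 0.09, adjusted p = 0.0012) and 136, 157 and 141 with HFG (0.61 ± 0.08, adjusted p = 1.5e-05). In L363-CFZr it went from 77.9, 89.2 and 77 to 105, 121 and 99.8 with NCP26 (0.44 ± 0.11, adjusted p = 0.021) and 98.5, 103 and 99.3 with HFG (0.34 ± 0.08, adjusted p = 0.0011). In this line the call with NCP26 was lost without the first or the third DMSO replicate or the first NCP26 replicate (adjusted p 0.062 to 0.11), and that with HFG with the set of libraries as a term (adjusted p = 0.71). BAX and BAK1 thus moved in opposite directions in AMO1 at 6 h with both inhibitors. At 24 h in AMO1 BAK1 was higher with NCP26 (0.21 ± 0.07, adjusted p = 0.011) and lower with CFZ (-0.40 ± 0.11, adjusted p = 0.024). The first of these was lost without the first DMSO or the third NCP26 replicate (adjusted p up to 0.064) or with the set as a term (adjusted p = 0.25). The second was lost without any 1 of the DMSO replicates or the first CFZ replicate (adjusted p 0.055 to 0.11). NCP22 lowered BAK1 in AMO1 at 6 h by 0.28 on the log2 scale. This was also lost without the first or second DMSO or the first or the third NCP22 replicate (adjusted p 0.065 to 0.14) and with an offset for GC content (adjusted p = 0.41). Its exons overlap those of GGNBP1 on the opposite strand.

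MCL1 (ENSG00000143384, chr1:150560895-150579738, minus strand), the short-lived guard on which plasma cells depend, kept a narrow range within each group. In AMO1 at 24 h it was at 1710, 1740 and 1690 CPM with DMSO, 2680, 2730 and 2650 with NCP26, 1570, 1450 and 1440 with HFG and 1090, 1060 and 1080 with CFZ. The 4 groups did not overlap, and the log2 fold changes were 0.64 ± 0.03 (adjusted p = 6.4e-17), -0.21 ± 0.04 (adjusted p = 0.00017) and -0.65 ± 0.11 (adjusted p = 0.0035). The decrease with HFG was lost with the set of libraries as a term (-0.19 ± 0.13, adjusted p = 0.25), where the standard error was wider. These are RNA levels. The paper lists MCL-1 among the proteins that NCP26 lowered in AMO1 at 6 h, and reports mass cytometry at 24 h as backing. The higher RNA with NCP26 at 24 h thus does not stand for more protein. At 6 h in AMO1 CFZ raised it by 0.33 ± 0.06 (adjusted p = 0.00022), from 1290, 1340 and 1510 to 1780, 1780 and 1680 CPM. In L363-CFZr HFG raised MCL1 at 6 h from 566, 601 and 540 to 756, 737 and 733 CPM (0.42 ± 0.06, adjusted p = 9.7e-07). With NCP26 at 24 h it stood at 724, 753 and 780 CPM against 534, 503 and 545, which gave an adjusted p of 0.053, and 0.49 ± 0.06 (adjusted p = 0.00012) without the second DMSO replicate. With HFG at 24 h MCL1 did not pass (adjusted p = 0.27), but was higher by 0.28 ± 0.05 (adjusted p = 0.00061) without that replicate. The increase with halofuginol in L363-CFZr at 6 h (0.15 ± 0.05, adjusted p = 0.031) was lost without the first or the third DMSO replicate or any 1 of the halofuginol replicates (adjusted p 0.07 to 0.12). In the reference 5.81% of the 31-mers of MCL1 also occur in other genes, and its exons overlap ADAMTSL4-AS1 on the same strand.

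Since NOXA binds MCL1, the ratio of MCL1 to PMAIP1 per kilobase was followed in every library. With DMSO it was 25.5 ± 2.9 (SD, n = 3) in AMO1 at 6 h and 36.8 ± 1.31 at 24 h, and 45.5 ± 6.19 and 43.8 ± 11.5 in L363-CFZr. With NCP26 it was 10.3 ± 0.69 and 19.4 ± 0.66 in AMO1 and 12.1 ± 1.38 and 24.2 ± 1.77 in L363-CFZr, with no overlap with DMSO at either time. With HFG it was 11.1 ± 1.24 and 8.3 ± 1.03 in AMO1, the last the lowest group of the series, and 11.8 ± 0.58 and 24.1 ± 3.76 in L363-CFZr. With CFZ in AMO1 it was 12 ± 0.67 at 6 h and 19.5 ± 5.28 at 24 h, also with no overlap with DMSO. The means with NCP22 and halofuginol lay between 25.2 and 49.8. An exact permutation test of 3 against 3 libraries cannot give a p below 0.1, so these ratios stand as values. They compare RNA, not protein. The ratio is built from the levels of MCL1 and PMAIP1 given above and is no result apart from them. In AMO1 at 6 h MCL1 was not called with NCP26 or HFG (means 1290 and 1350 CPM, 1380 with DMSO). The lower ratio there thus restates the rise of PMAIP1.

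**Figure D3:**
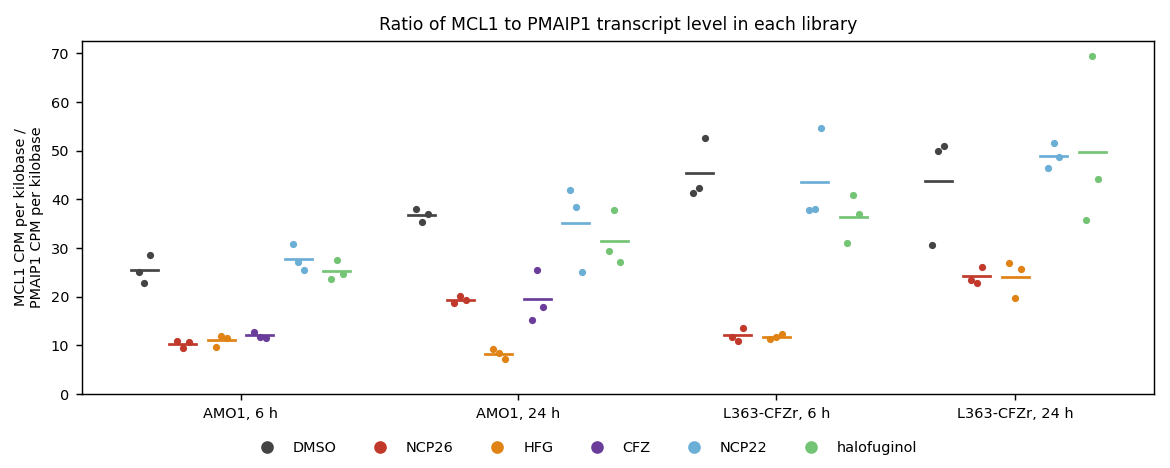
Ratio of MCL1 to PMAIP1, each in CPM per kilobase, in every library by line, time and agent, with points for libraries and bars for group means. At 6 h the libraries with NCP26 and HFG sit between 9.49 and 13.6 in both lines, below every DMSO library.

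BCL2L1 (ENSG00000171552, chr20:31664452-31723989, minus strand), the gene of BCL-XL, rose in AMO1 and fell in L363-CFZr. In AMO1 at 6 h it went from 43.3, 40.5 and 44.6 CPM to 52.4, 53.9 and 62.7 with NCP26 (0.41 ± 0.12, adjusted p = 0.016) and 63.6, 72.3 and 68.3 with HFG (0.71 ± 0.10, adjusted p = 1.8e-05). With CFZ it reached 47, 57.3 and 57.9 CPM (0.34 ± 0.11, adjusted p = 0.032). At 24 h the increases were 0.61 ± 0.10 (adjusted p = 4.1e-06), 0.50 ± 0.11 (adjusted p = 0.00083) and 0.53 ± 0.13 (adjusted p = 0.017). In L363-CFZr at 6 h it dropped from 69.3, 72.2 and 79.4 CPM to 52, 49.7 and 49 with NCP26 (-0.53 ± 0.11, adjusted p = 0.0072) and 43.3, 47.1 and 48.1 with HFG (-0.65 ± 0.09, adjusted p = 3.3e-06). The call with NCP26 in AMO1 at 6 h was lost without the first or second DMSO or the third NCP26 replicate (adjusted p 0.051 to 0.077). Those with CFZ were lost at 6 h without the first or second DMSO or the second or the third CFZ replicate (adjusted p 0.058 to 0.13). At 24 h they were lost without the second or the third DMSO or the first CFZ replicate (adjusted p 0.059 to 0.088). At 24 h in L363-CFZr the levels with NCP26 were 25.3, 23.2 and 34.5 CPM against 42.7, 45.6 and 40.3 (adjusted p = 0.08, and 0.015 without the second DMSO replicate).

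BCL2 (ENSG00000171791, chr18:63123346-63320128, minus strand), the founding survival gene of the family, rose in L363-CFZr at 6 h with NCP26, from 144, 156 and 128 to 257, 173 and 253 CPM (0.71 ± 0.16, adjusted p = 0.011). With HFG it reached 282, 266 and 280 CPM (1.00 ± 0.07, adjusted p = 4.7e-11). The call with NCP26 was lost without the first or the third DMSO replicate (adjusted p 0.054 to 0.078). At 24 h in L363-CFZr BCL2 did not pass with NCP26 (adjusted p = 0.28) or HFG (adjusted p = 0.8). Without the second DMSO replicate it was higher by 0.52 ± 0.07 (adjusted p = 2e-04) and 0.27 ± 0.05 (adjusted p = 0.00078). In AMO1 BCL2 at 24 h was at 344, 351 and 323 CPM with DMSO and 416, 409 and 398 with NCP26 (0.26 ± 0.05, adjusted p = 1.5e-05). With HFG it was at 251, 265 and 282 CPM (-0.35 ± 0.06, adjusted p = 3.5e-05), and with CFZ at 219, 255 and 214 CPM (-0.54 ± 0.12, adjusted p = 0.011). The increase with NCP26 was lost with the set of libraries as a term (adjusted p = 0.5). The decrease with CFZ was lost without the first or second DMSO replicate (adjusted p 0.057 to 0.065). At 6 h in AMO1 it was lower with CFZ (-0.28 ± 0.08, adjusted p = 0.01, and 0.097 without the third CFZ replicate). It was higher with NCP22 (0.27 ± 0.07, adjusted p = 0.015) and halofuginol (0.26 ± 0.07, adjusted p = 0.041). The call with NCP22 was lost without the first or second DMSO or the third NCP22 replicate (adjusted p 0.055 to 0.11). That with halofuginol was lost without the first or second DMSO replicate or any 1 of the halofuginol replicates (adjusted p 0.11 to 0.19).

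The effects of the inhibitors were then compared between the lines, as the effect in L363-CFZr minus that in AMO1. With NCP26 at 6 h 6 of 9 members differed, where 2.71% of all genes did, and with HFG 7 of 9 differed against 20.7%. For HFG at 6 h the L363-CFZr libraries and their DMSO were in different sets, as were the AMO1 libraries of both agents at 24 h. The count with NCP26 was 3 without the first or the third DMSO replicate or the first NCP26 replicate of L363-CFZr. BCL2L1 had the negative differences, -0.96 ± 0.15 (adjusted p = 0.0016) with NCP26 and -1.35 ± 0.13 (adjusted p = 1.6e-07) with HFG. BBC3 differed by 1.73 ± 0.24 (adjusted p = 0.00061) and 1.67 ± 0.24 (adjusted p = 3e-05). BCL2L11 differed by 0.83 ± 0.12 and 0.88 ± 0.10, and BCL2 by 0.87 ± 0.19 and 1.06 ± 0.11. BAX differed by 0.88 ± 0.21 and 0.57 ± 0.17 and PMAIP1 by 0.96 ± 0.23 and 1.19 ± 0.23. Of these, with NCP26, BCL2 was lost without any of 4 libraries (adjusted p at most 0.068). PMAIP1 was lost without any of 9 (adjusted p at most 0.15) and BAX without any of 8 of the 12 libraries (adjusted p at most 0.099). With HFG BAX was lost without any of 4 libraries (adjusted p at most 0.071) or with the set of libraries as a term (adjusted p = 0.057). MCL1 differed with HFG by 0.42 ± 0.09 (adjusted p = 0.0012). At 24 h 2 of 9 members differed with NCP26 (5.41% of all genes) and 7 did without the second DMSO replicate of L363-CFZr, or 1 without any of 7 other libraries. With HFG 5 of 9 differed (16.9%). At 24 h BCL2L1 differed by -1.25 ± 0.20 with NCP26 and -0.85 ± 0.16 with HFG. BBC3 differed by 0.66 ± 0.15 and 1.10 ± 0.20, but with the set of libraries as a term its adjusted p was 0.63 and 0.1. With NCP26 it was lost without any of 7 libraries (adjusted p 0.053 to 0.079).

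**Figure D4:**
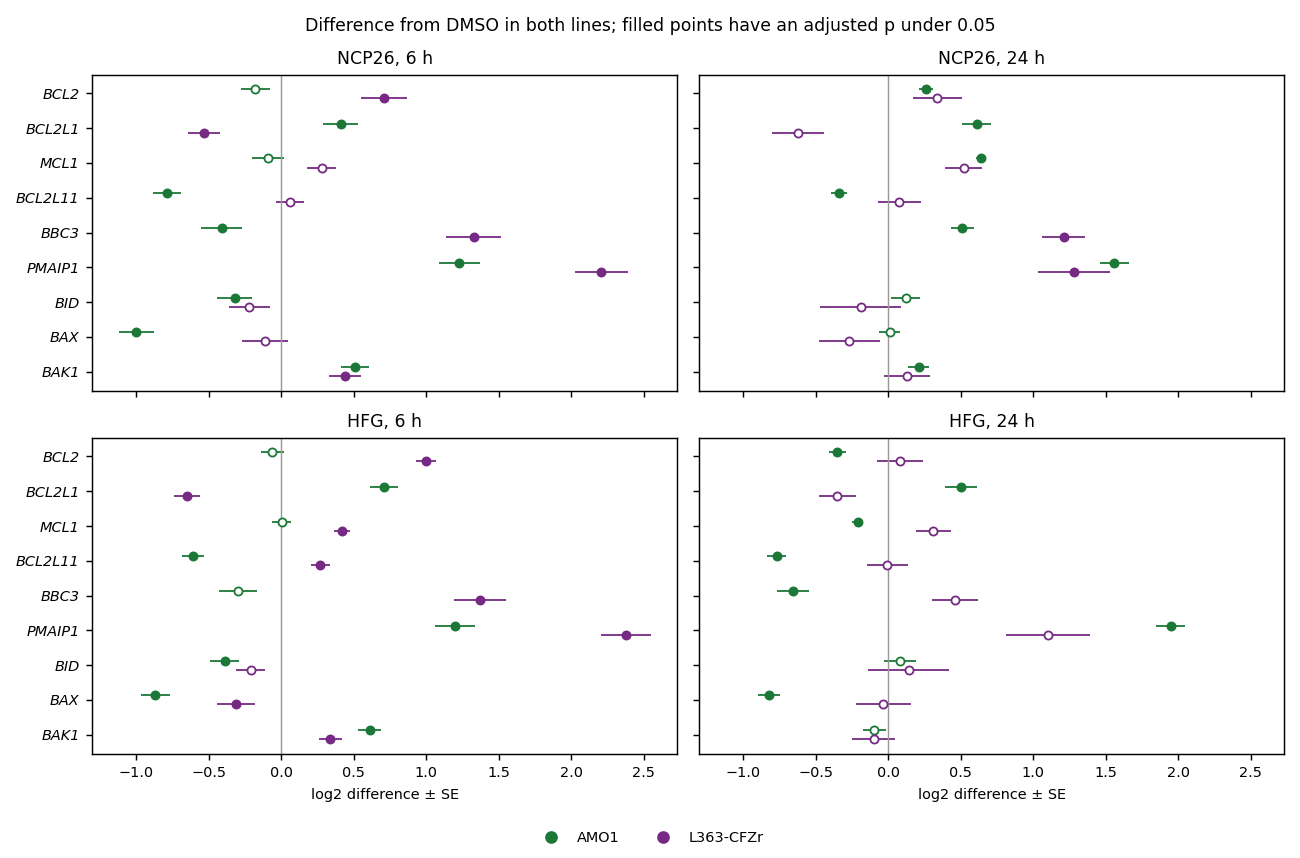
Log2 difference from DMSO of each member in AMO1 (green) and L363-CFZr (purple), with NCP26 and HFG at 6 and 24 h in separate panels, bars for the standard error and filled points for an adjusted p under 0.05. BCL2L1 lies to the left in L363-CFZr and to the right in AMO1 in each panel, with line differences of -0.85 to -1.35, and BBC3 lies further right in L363-CFZr.

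The effects differed between the times as well. In AMO1 all groups at 6 h and DMSO at 24 h were in the same set of libraries. NCP26, HFG and most of the CFZ libraries at 24 h were in another, so time and set cannot be told apart there. In L363-CFZr HFG at 6 h was in another set than its DMSO. In AMO1 the effect of NCP26 at 24 h differed from that at 6 h for 5 of 9 members (17.5% of all genes), all toward higher levels. BAX differed by 1.01 ± 0.14, BBC3 by 0.92 ± 0.17, MCL1 by 0.73 ± 0.11, BCL2 by 0.44 ± 0.11 and BCL2L11 by 0.43 ± 0.11. With the set of libraries as a term BCL2 (adjusted p = 0.21) and BCL2L11 (adjusted p = 0.7) no longer differed by the threshold. For HFG in AMO1 4 members differed (39.6%), among them PMAIP1 by 0.79 ± 0.18 and BAK1 by -0.67 ± 0.11. BCL2 (-0.25 ± 0.10) was lost without any of 7 libraries (adjusted p at most 0.14). For CFZ 5 members differed (19.6%), all toward lower levels, with PMAIP1 at -1.09 ± 0.22 and MCL1 at -0.99 ± 0.13. In L363-CFZr HFG differed for 3 members (12.3%), BCL2, BBC3 and PMAIP1, all lower at 24 h. This count was 5 without the second DMSO replicate at 24 h and 1 without any of 8 other libraries. BBC3 was lost without any of 10 and PMAIP1 without any of 8 of the 12 libraries (adjusted p at most 0.11 and 0.094). For NCP26 in L363-CFZr 0 members differed by edgeR (0.691% of all genes), with 1 at an unadjusted p under 0.05 and 0 by DESeq2. With DMSO alone, 5 members differed between 24 and 6 h in AMO1 (4 higher, 1 lower; 46.5%). BCL2L11 was higher by 0.56 ± 0.07, BCL2 by 0.55 ± 0.07 and BID lower by -0.46 ± 0.11. In L363-CFZr 2 members differed (14.8%), BCL2 by 0.92 ± 0.18 and BCL2L1 by -0.78 ± 0.13. The last pair was lost without any 1 of the DMSO libraries at 6 h (adjusted p 0.064 to 0.12), and 5 members were called without the second replicate at 24 h. Lysates were frozen overnight after 6 h and kept on ice after 24 h, which cannot be told apart from time. In L363-CFZr the DMSO libraries of 6 and 24 h were also in different sets, which cannot be told apart from time either.

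The compounds were set against each other at 1 µM and matched times in 12 comparisons, with p-values adjusted over all genes in each. NCP26 and NCP22, the compound it was developed from, differed in 6 of 9 members in AMO1 at 6 h (24.7% of all genes) and 7 at 24 h (52%). In L363-CFZr they differed in 5 members at 6 h (20.4%) and 8 at 24 h (34.1%), or 5 at 24 h without the second NCP26 replicate. PMAIP1 was higher with NCP26 by 1.32 ± 0.14 and 1.62 ± 0.15 in AMO1 and by 2.12 ± 0.21 and 1.5 ± 0.20 in L363-CFZr. None of these comparisons uses a DMSO library. At 24 h MCL1 was higher with NCP26 by 0.81 ± 0.06 in AMO1 and 0.48 ± 0.07 in L363-CFZr. In L363-CFZr at 24 h BID was lower with NCP26 (-0.67 ± 0.14, adjusted p = 0.0019) and BBC3 higher (1.2 ± 0.17, adjusted p = 0.0001). BCL2L1 was lower (-0.59 ± 0.15, adjusted p = 0.0072, and 0.051 without the second NCP26 replicate).

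HFG and halofuginol, which differ in a ketone against an alcohol, differed in 8 of 9 members in AMO1 at 6 h (51.7%) and 7 at 24 h (56.6%). In L363-CFZr they differed in 8 at 6 h (47.3%) and 6 at 24 h (21.9%), or 3 at 24 h without the first HFG replicate. PMAIP1 was higher with HFG by 1.10 ± 0.12 and 1.75 ± 0.12 in AMO1 and by 1.85 ± 0.14 and 1.29 ± 0.27 in L363-CFZr. BBC3 was lower with HFG in AMO1, by -0.44 ± 0.10 and -0.97 ± 0.12, and higher in L363-CFZr at 6 h, by 1.4 ± 0.14.

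NCP26 and HFG were not told apart in the members at 6 h. Called by edgeR were 0 of 9 in AMO1 (0.26% of all genes) and 0 of 9 in L363-CFZr (0%, where 1188 had an unadjusted p under 0.05 and DESeq2 called 0). In each line 1 member had an unadjusted p under 0.05 and DESeq2 called 0. In L363-CFZr at 6 h the NCP26 and HFG libraries were in different sets. Over all genes their log2 difference correlated with GC content (Pearson's r = 0.51). The intervals of NCP26 minus HFG allow log2 differences in PMAIP1 of -0.27 to 0.38 in AMO1 and -0.43 to 0.09 in L363-CFZr, and in BBC3 of -0.40 to 0.22 and -0.32 to 0.27. At 24 h 7 of 9 members differed in AMO1 (44.9%) and 3 in L363-CFZr (12.9%, or 1 without the first HFG replicate). In AMO1 NCP26 gave more BBC3 (1.17 ± 0.10, adjusted p = 5.5e-08), MCL1 (0.84 ± 0.04, adjusted p = 1.8e-12) and BAX (0.82 ± 0.08, adjusted p = 3.2e-07). It also gave more BCL2 (0.60 ± 0.05), BCL2L11 (0.42 ± 0.06) and BAK1 (0.30 ± 0.07) and less PMAIP1 (-0.40 ± 0.09, adjusted p = 0.00082). In L363-CFZr NCP26 gave more BBC3 (0.75 ± 0.13, adjusted p = 0.0031). BCL2 (0.25 ± 0.06) and MCL1 (0.22 ± 0.06) were also higher. BCL2 was lost without the first or second HFG replicate (adjusted p 0.051 to 0.077) and MCL1 without the first or the third HFG or the second or the third NCP26 replicate (adjusted p 0.067 to 0.14).

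**Figure D5:**
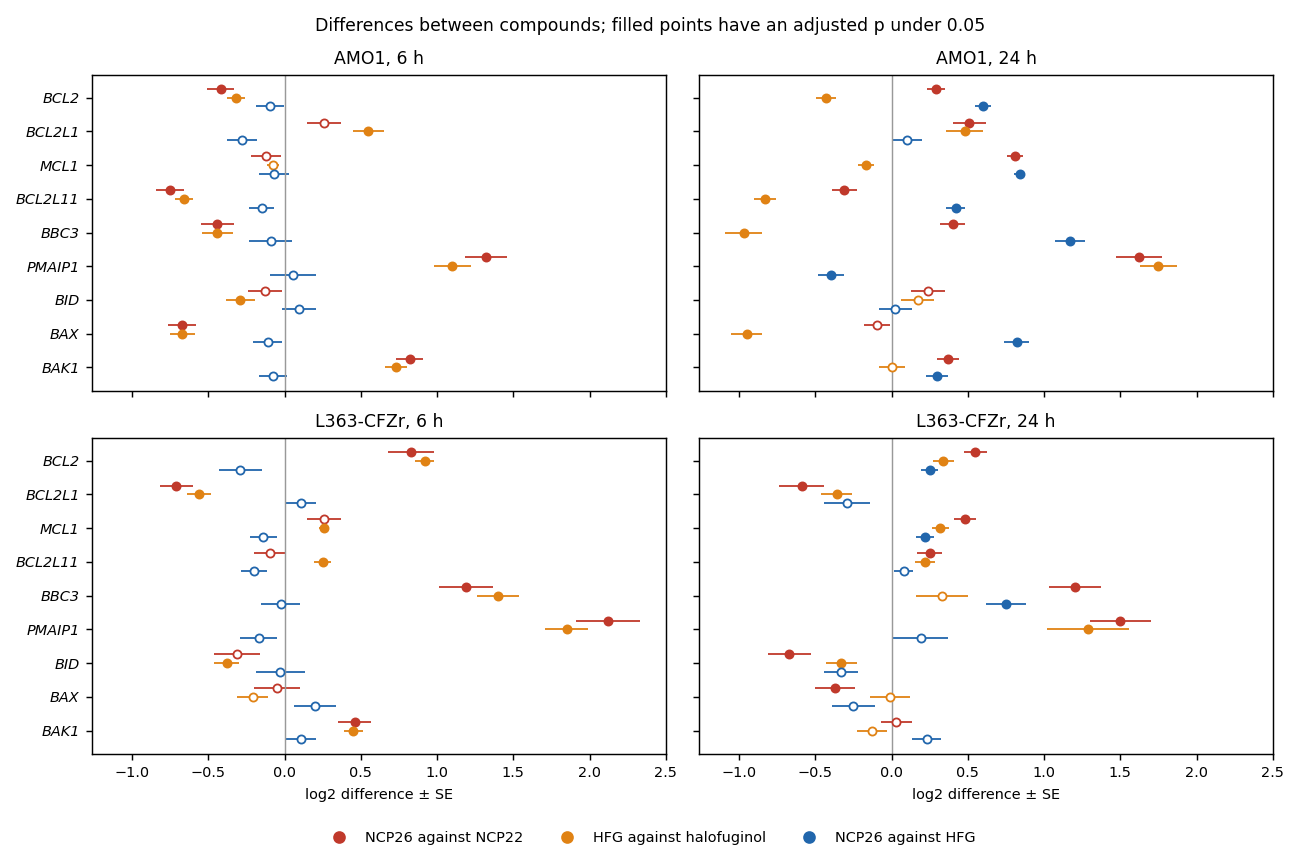
Log2 difference between compounds for each member, with a panel for each line and time, colours for the pairs of compounds, bars for the standard error and filled points for an adjusted p under 0.05. The points of NCP26 against HFG are all open at 6 h, while at 24 h in AMO1 BBC3 lies at 1.17 and PMAIP1 at -0.40.

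Among 13 further genes of the family, of which 7 to 9 passed the filter, the BH3-only gene HRK rose with NCP26 by 1.93 ± 0.43 and 1.80 ± 0.32 in AMO1 and by 2.26 ± 0.46 in L363-CFZr at 6 h. BMF, the BH3-only protein tied to the cytoskeleton, rose in the same groups by 0.78 ± 0.10 or less with NCP26, and by 1.00 ± 0.10 with HFG in AMO1 at 24 h. In AMO1 at 6 h 3 of 9 rose and 2, BNIP3L and BCL2L12, fell with NCP26 (median -0.10, all genes -0.01, of which 37.3% changed). In L363-CFZr 3 of 9 rose and 0 fell (median 0.04, all genes 0.01, of which 18.8% changed). At 24 h with NCP26 5 of 9 rose and 3 fell in AMO1, where 60.7% of all genes changed. Those that fell were BIK, BNIP3L and BCL2L12, and BIK also fell there with HFG and CFZ. In L363-CFZr at 24 h 0 of 7 were called with NCP26 (7.09% of all genes). The filter can keep a gene for its level in the treated group alone. Between the DMSO groups of 24 and 6 h, 8 of these genes passed it in AMO1 and 7 in L363-CFZr. The large values of HRK may thus rest on few counts with DMSO, which was not examined.

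Of 16 genes downstream of the mitochondrion, 4 rose and 3 fell with NCP26 in AMO1 at 6 h (median 0.10), and 2 rose and 1 fell in L363-CFZr (median 0.13). These shares lie near the 37.3% and 18.8% of all genes. PARP1, the DNA repair enzyme that caspases cut, fell with NCP26 in both lines at both times by -0.61 ± 0.10 to -0.77 ± 0.06. It rose with CFZ in AMO1 at 24 h (0.83 ± 0.10, adjusted p = 0.00085).

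Of 14 known regulators of the family, 6 rose and 2 fell with NCP26 in AMO1 at 6 h (median 0.28, all genes -0.01, of which 37.3% changed). In L363-CFZr 6 rose and 0 fell (median 0.25, all genes 0.01, of which 18.8% changed). ATF3 rose by 2.92 ± 0.15 and 2.75 ± 0.16 and DDIT3 by 1.86 ± 0.10 and 2.02 ± 0.13, both genes of the integrated stress response. TRIB3 rose by 1.49 ± 0.10 and 3.09 ± 0.12 and CHAC1 by 0.70 ± 0.18 and 2.77 ± 0.21. With CFZ in AMO1 at 6 h ATF3 rose by 4.09 ± 0.11 and DDIT3 by 1.69 ± 0.08.

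Among 10 p53 targets outside the family, 1 rose and 7 fell with NCP26 in AMO1 at 6 h (median -0.59, all genes -0.01, of which 37.3% changed). At 24 h 4 rose and 4 fell (median -0.02, with 60.7% of all genes changed). In L363-CFZr 5 rose and 0 fell at 6 h (median 0.50, all genes 0.01, of which 18.8% changed). CDKN1A, the cell cycle inhibitor p21, differed by -2.61 ± 0.10 (adjusted p = 1.3e-08) in AMO1 and 1.17 ± 0.22 (adjusted p = 0.0054) in L363-CFZr. The difference between the lines was 3.77 ± 0.20 (adjusted p = 2.2e-08). MDM2, the ligase that turns p53 over, fell in AMO1 by 1.13 on the log2 scale (SE 0.10). In L363-CFZr at 6 h it was not called with NCP26 but rose with HFG by 0.63 ± 0.10. Halofuginol raised it there too, and both agents were in another set than their DMSO. MDM2 was also higher with HFG than with halofuginol. The line difference at 6 h passed the test with a positive sign for 8 of these genes with NCP26 (2.71% of all genes passed). With HFG it did so for 9 (20.7%). The same sign was seen above for BBC3, PMAIP1, BAX, BCL2 and BCL2L11, and for MCL1 with HFG. With NCP26 those of PMAIP1, BAX and BCL2 were lost without single libraries. BCL2L1 differed with the opposite sign with both agents, and BAK1 and BID were not called. Whether the targets and the members share a cause was not tested. At 24 h the line difference passed for 2 with NCP26, CDKN1A and GDF15 (5.41% of all genes), and for 9 with HFG (16.9%). With DMSO alone 9 of the 10 targets were lower in L363-CFZr at 6 h (median -1.85, with 60.2% of all genes called). At 24 h 9 were lower as well (median -2.42, with 39.9% called).

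For PMAIP1, BCL2 and BCL2L1, called 8 times each, and BBC3, called 7 times as were BAX and BAK1, the genes of most similar pattern were sought by Pearson's r of mean log2 CPM over the 22 groups, each centred on its line, among 11787 genes. PMAIP1 was followed most closely by SLC3A2 (r = 0.959), RAB39B (0.953) and GRPEL2 (0.949), and BBC3 by TNFRSF10B (0.887), FAS (0.881) and GFPT1 (0.851). BCL2 was followed by ZNF12 (r = 0.954), PCMTD2 (0.95) and INSR (0.92), and BCL2L1 by NEU1 (0.935), VPS33A (0.905) and GNPDA1 (0.894). The groups share lines, libraries and agents, so these values are descriptions.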

How the data were processed

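Poly(A) RNA was sequenced in 66 libraries with a directional paired-end protocol. The authors pseudo-aligned reads with kallisto and deposited whole-number gene counts. The paper names GRCh38 and the submitters' processing notes name hg19, so the build was not settled, and no coordinate of the files was used. Not given in the sources used here are the kallisto version, its annotation and the step to whole numbers. Gene positions, lengths and GC content came from GENCODE 44.

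Counts were tested with edgeR 4.0.16 (R 4.3.3) by the quasi-likelihood test within the groups compared, after filterByExpr (minimum count 10, minimum total count 15) and TMM scaling, with Benjamini-Hochberg adjustment over all genes and a threshold of 0.05. A standard error is the log2 fold change over the root of F, and levels are TMM-scaled CPM over all libraries. Called, rose and fell mean past that threshold, and lost means no longer past it. DESeq2 1.42.0, other scaling, no filter, an offset for GC content, a replicate block, all groups in one fit, that fit with a term for the set of libraries and leaving out each library were alternatives. The fits were tested on simulated data. All 10 members were named, with further lists by count and up to 4 examples by size, and the 3 most similar genes for 4 members (BBC3 tied with BAX and BAK1 for the last place). Genes named beyond these examples (BMF, BIK, BNIP3L, BCL2L12, MDM2, GDF15) were chosen after their values were seen. Members and lists were chosen with earlier results of these data known.

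Replicate numbers shared between groups did not pair the libraries. Total counts of 1666325 to 6596543 limit precision for PMAIP1 and BBC3 in L363-CFZr.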

Additional observations from a re-analysis of the deposited data

Results flagged for a closer look

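Each value here is a difference between effects against DMSO (log2 scale) that passed the edgeR test of that difference. For L363-CFZr minus AMO1 with NCP26 at 6 h, BCL2 differed by 0.87, BCL2L1 by -0.96, BCL2L11 by 0.83, BBC3 by 1.73, PMAIP1 by 0.96 and BAX by 0.88, and at 24 h BCL2L1 differed by -1.25 and BBC3 by 0.66. With HFG at 6 h, BCL2 differed by 1.06, BCL2L1 by -1.35, MCL1 by 0.42, BCL2L11 by 0.88, BBC3 by 1.67, PMAIP1 by 1.19 and BAX by 0.57. With HFG at 24 h, BCL2L1 differed by -0.85, MCL1 by 0.50, BCL2L11 by 0.76, BBC3 by 1.10 and BAX by 0.78. Of the last 5, MCL1 was lost with a replicate block (adjusted p = 0.07). BAX was lost with the set of libraries as a term (adjusted p = 0.061), as was BBC3 (adjusted p = 0.1). For this list and the next, the shares of all genes and the calls lost without single libraries are given above.

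For 24 h minus 6 h in AMO1 with NCP26, BCL2 differed by 0.44, MCL1 by 0.73, BCL2L11 by 0.43, BBC3 by 0.92 and BAX by 1.01. With HFG in AMO1, BCL2 differed by -0.25, PMAIP1 by 0.79, BID by 0.51 and BAK1 by -0.67, and in L363-CFZr BCL2 differed by -0.89, BBC3 by -0.88 and PMAIP1 by -1.26. With CFZ in AMO1, MCL1 differed by -0.99, BBC3 by -0.93, PMAIP1 by -1.09, BAX by -0.86 and BAK1 by -0.50. BCL2L1 was the member whose effects differed between the lines in the negative direction in all 4 of these comparisons, and their causes were not tested.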

How the results depend on the processing

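Of 183 called member values, 124 kept their direction and their side of the threshold under all alternatives run. BAX with HFG in L363-CFZr at 6 h changed sign with the GC offset (0.041). The 3 calls with NCP22 against DMSO became 1 with the GC offset and 1 with DESeq2. The 2 calls with halofuginol became 0 with the GC offset, all groups in one fit and a term for the set of libraries. In a further setting, the replicate of the same number was left out of 1 side of every comparison at once. This gave 0 to 3 calls with NCP22, 0 to 3 with halofuginol and 15 to 22 with NCP26 (21 with all). With CFZ it gave 8 to 15 calls (13), and between times with DMSO 4 to 9 (7). The causes of these changes were not tested, and each fit without a library also holds fewer libraries. All groups in one fit lost 13 of the 183 calls, and the same fit with a term for the set of libraries lost 27. That term rests on AMO1 with CFZ at 24 h and L363-CFZr with NCP22 at 6 h. No other group holds more than 1 set, so a call may be lost through a wider error alone. Replicate numbers did not pair the libraries (correlations of deviations -0.322 to 0.267, all 3 above 0.1 in 0 of 34 comparisons). With a replicate block the calls were 18 with NCP26, 20 with HFG (21 without), 11 with CFZ, 3 with NCP22, 2 with halofuginol, 24 for NCP26 against NCP22 (26), 29 for HFG against halofuginol (29), 10 for NCP26 against HFG (10), 14 between lines (14), 7 between times (7), 15 for line differences (20) and 14 for time differences (17). Depth limits PMAIP1 and BBC3 in L363-CFZr, and BCL2A1 everywhere.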
